A study of Mus musculus with 68 samples.

Results

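The Hedgehog pathway genes described here are the 9 genes Shh, Ptch1, Smo, Gli1, Gli2, Gli3, Hhip, Gas1 and Boc, listed by name among 21948 genes in the table. No cut on a measured value was used to list them, but earlier results of these data were known at the time. All 9 were in the table, and all 9 passed the filter on low values (at least 1 CPM, the usual unit of read counts scaled to sequencing depth, in at least 3 libraries), which kept 18428 genes. RNA was sequenced from pharyngeal arch 1 (PA1) and pharyngeal arch 2 (PA2) of mouse embryos, paired swellings of the embryonic throat that contribute to the face, jaw and neck. Both genotypes, wildtype and Hoxa2-/-, are described with the strain CBA/Ca/J x C57BL/10, and no treatment is given. Hoxa2 encodes a homeobox transcription factor made in PA2. Wildtype PA1 was represented by 5, 5, 5 and 3 libraries at the stages E9.0, E9.5, E10.0 and, last, E10.5 (days of gestation), wildtype PA2 by 4, 4, 5 and 3, and PA1 and PA2 labelled Hoxa2-/- by 4, 5, 5 and 3 each. The 68 libraries in 16 groups were made from 35 embryos, and both arches of 33 of these were sequenced.

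Hedgehog signalling starts with a secreted ligand, of which Sonic hedgehog (Shh) is the one best known in the embryonic face and throat, where epithelium makes it and the adjoining mesenchyme responds. The receptor Ptch1 holds the membrane protein Smo inactive until a ligand binds, and the co-receptors Gas1, Boc and Cdon help the ligand to bind. Active Smo changes the transcription factors Gli2 and Gli3 from repressing to activating forms, and Gli1, Ptch1 and Hhip are targets of the pathway that are widely used as its readouts. RNA levels do not report the processing of the Gli2 and Gli3 proteins.

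Some facts of the whole series bear on all values below. Reads per library ran from 8912251 to 20619153, so that 3 reads, taken as the floor, corresponded to 0.140 to 0.328 CPM. The summed level of 6 markers of arch mesenchyme was 327 to 621 CPM at E9.0 and 616 to 759 CPM at E10.5, so the labelled tissue carried its markers. Hoxa2 RNA was at most 0.926 CPM in every PA1 library. In PA2 its mean was 22.3, 40.7, 47.5 and 58.3 CPM over the 4 stages in wildtype, and 28.7, 60.7, 97.7 and 132 CPM in libraries labelled Hoxa2-/-. Hoxa2 RNA was therefore not lower under that label, and the sources used here do not say which part of the gene was deleted, so that these counts do not check it. The groups are called by their labels throughout. A further division ran across the libraries: 19 genes separated the 24 wildtype libraries of the 3 stages other than E10.0 from the other 44 without overlap, 17 higher and 2 lower, with the wildtype E10.0 libraries on the side of the label Hoxa2-/-. At those 3 stages the label and this division cannot be told apart. Finally, 4 libraries, all of PA2, were above limits of 10000 CPM of red cell markers or 50 CPM of yolk sac markers. Of these, wildtype E9.0 replicate 2 had 53786 CPM of red cell markers. Wildtype E10.0 replicate 3 and the E9.0 replicate 3 and E10.0 replicate 4 labelled Hoxa2-/- had 86.3, 213 and 193 CPM of yolk sac markers. Just below the limit, the highest wildtype PA1 library at E9.0 had 47.5 CPM of yolk sac markers and was not counted among them.

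The 9 genes lie on separate chromosomes or far apart, except for 3 on chromosome 13. In the GRCm38 assembly with GENCODE M21 annotation, Shh spans chr5:28456815-28467256 on the minus strand, Smo chr6:29735503-29761365 on the plus strand, Boc chr16:44485049-44558897 on the minus strand and Hhip chr8:79965851-80058006 on the minus strand. Gas1 (chr13:60174405-60177365, minus), Ptch1 (chr13:63508328-63573598, minus) and Gli3 (chr13:15463235-15730026, plus) share chromosome 13. Gli1 spans chr10:127329882-127341974 and Gli2 chr1:118834132-119053619, both on the minus strand. Exons of Shh, Gli1, Gli3, Hhip and Gas1 overlap exons of genes on the opposite strand. Since the counting program and its use of strand are not given in the sources used here, reads from the shared bases cannot be assigned with certainty. Of those partners that are in the table, Gm48488, which shares 589 exon bases with Gas1, had at most 2.09 CPM, and Gm26894, which shares 361 exon bases with Shh, had at most 0.711 CPM, which is not small beside the low level of Shh.

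RefSeq promoter windows (GRCm38.p6, 250 bases before to 50 after a transcript start) were matched by symbol for 6 of the 9 genes: Ptch1, Smo, Gli2, Gli3, Hhip and Gas1. The letters of the Gli consensus site, GACCACCCA, were searched on both strands and stood in none of the 6 windows, against 83 of 32851 windows in the whole table (0.253%). The shorter core ACCACCC, which lies within the consensus, stood in the Gli2 window only and in 4.61% of all windows. A match is a description of letters and not of binding, and the absence of a match says nothing beyond these windows. The 250 bases before the start are printed for Gas1 and Smo, the members highest per length and both lower in PA2 at E9.0, and for Gli2, the member with the core. They are read 5′ to 3′ along the gene's strand, at chr13:60177536-60177785 (minus) for Gas1, chr6:29735247-29735496 (plus) for Smo and chr1:119053620-119053869 (minus) for Gli2. Capitals mark the core, written as on its other strand, which begins 205 bases before the start.
Gas1: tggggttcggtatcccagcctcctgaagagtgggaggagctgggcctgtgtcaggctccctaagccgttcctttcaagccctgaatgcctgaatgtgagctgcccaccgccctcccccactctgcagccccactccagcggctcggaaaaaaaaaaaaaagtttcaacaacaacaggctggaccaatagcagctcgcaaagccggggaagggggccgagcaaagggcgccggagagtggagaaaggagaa
Smo: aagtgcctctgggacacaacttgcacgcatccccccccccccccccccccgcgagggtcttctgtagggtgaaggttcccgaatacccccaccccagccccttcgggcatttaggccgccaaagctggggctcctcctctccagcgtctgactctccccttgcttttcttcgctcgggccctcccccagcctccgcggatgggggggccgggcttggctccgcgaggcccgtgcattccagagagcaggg
Gli2: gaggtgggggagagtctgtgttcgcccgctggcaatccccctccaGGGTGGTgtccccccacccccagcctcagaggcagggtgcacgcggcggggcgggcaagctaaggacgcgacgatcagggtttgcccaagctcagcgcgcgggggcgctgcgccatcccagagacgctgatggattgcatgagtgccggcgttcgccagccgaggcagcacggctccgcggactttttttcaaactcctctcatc

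Per kilobase of exon, the co-receptor Gas1 and Smo were the most abundant members and the ligand the least. Over 68 libraries Gas1 had 65.3 ± 23.6 CPM per kilobase (SD, n = 68), and Smo had 40.9 ± 7.24. Gas1 was above Smo in 56 of 68 libraries. Gli3 followed at 8.942 ± 1.961 CPM per kilobase, below Smo in every library. Gli2 (4.31 ± 0.923), Ptch1 (4.23 ± 0.953) and Boc (4.05 ± 1.02) were alike within their spread: Gli2 was above Ptch1 in 33 libraries and Ptch1 above Boc in 30. Gli1 stood at 1.80 ± 0.668, the ligand-binding antagonist Hhip at 1.15 ± 0.283 and Shh at 0.634 ± 0.312 CPM per kilobase. The readout Gli1 was above Hhip in 55 libraries, and Hhip was above Shh in 60.

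**Figure D1:**
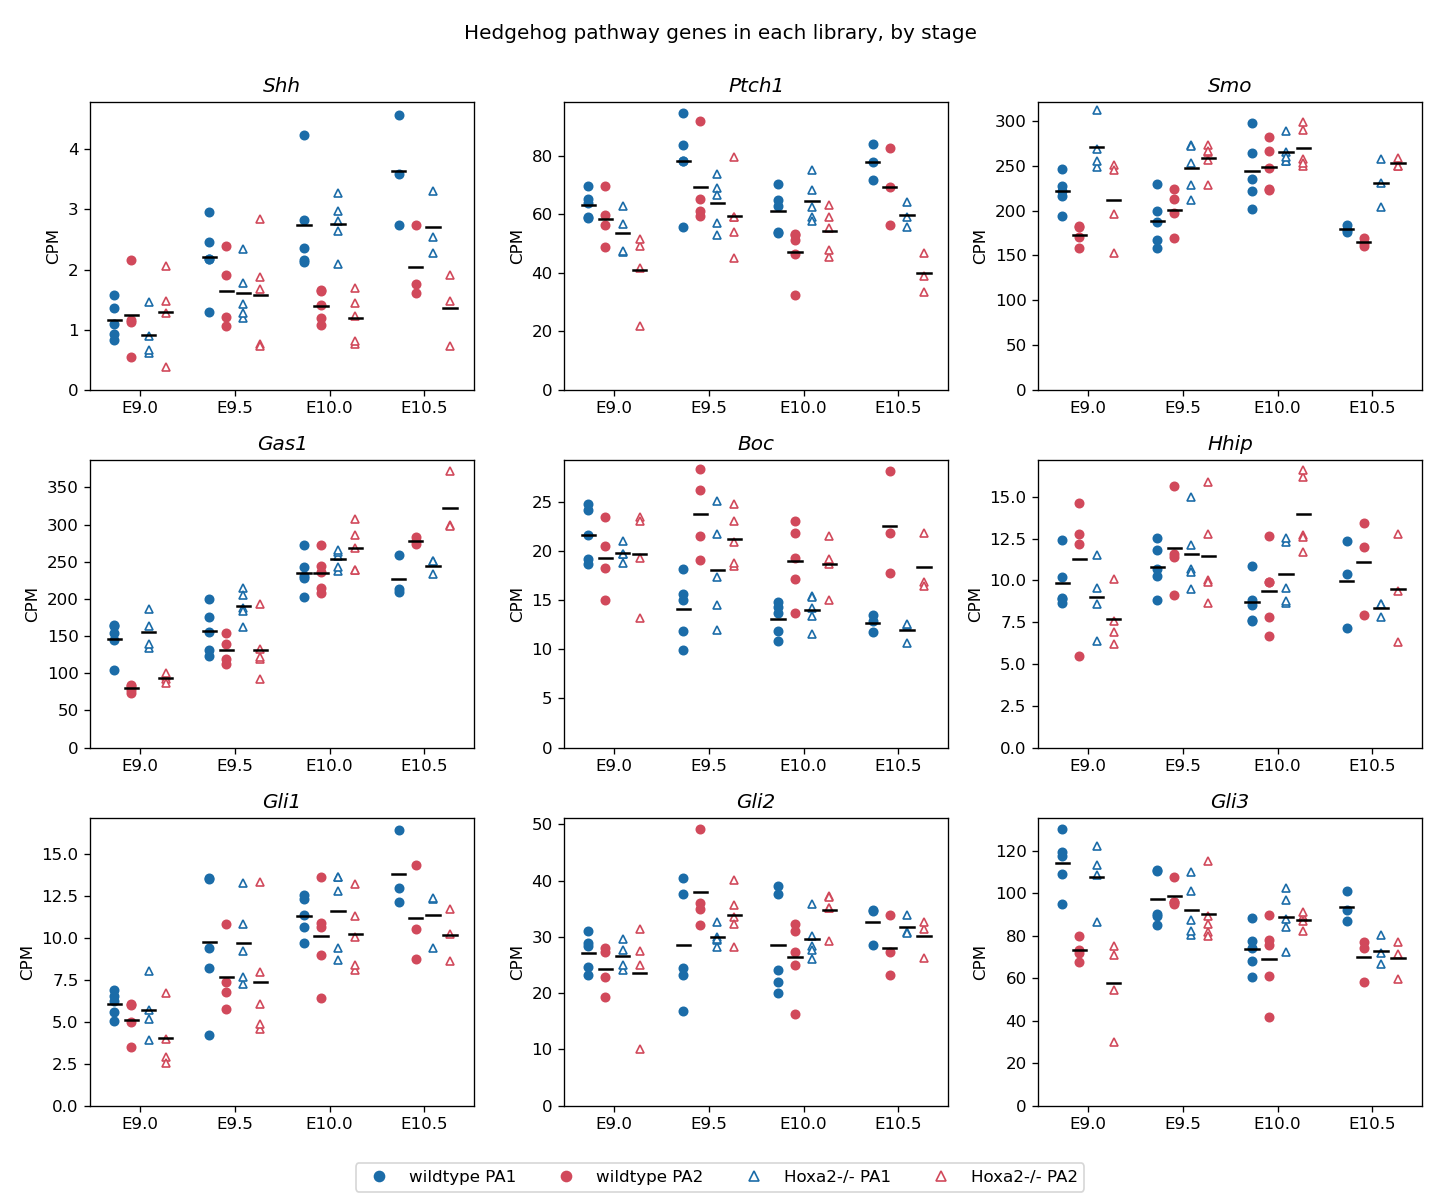
Level of each of the 9 genes in CPM (vertical axes, each from its own range) in every library, by stage from E9.0 to E10.5 (horizontal axes); filled circles are wildtype and open triangles the label Hoxa2-/-, blue is PA1, red is PA2 and the black bars are group means. Gas1 rises in PA2 from 73.8 to 84.4 CPM in wildtype at E9.0 to 274 to 283 CPM at E10.5, and Shh stays at or below 4.57 CPM throughout.

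In 4 kinds of comparison (between arches, between labels, over the stages, and the change of the arch difference from E9.0 to E10.5), members passed the test (limma, adjusted p of at most 0.05 over all 18428 genes), which was run on log2(CPM + 1), the scale of all differences below. Between the arches, Gas1, Gli3 and Smo were lower in PA2 at E9.0, Boc was higher in wildtype PA2 from E9.5, and Shh was lower in PA2 at E10.0. Of 72 tests of 9 members at 4 stages under 2 labels, 12 passed, 3 higher and 9 lower in PA2. In wildtype, 3, 1, 2 and 1 of the 9 members passed at the 4 stages in order, against 18.7%, 26.3%, 5.94% and 1.52% of all genes tested. Under the label Hoxa2-/-, 3, 1, 1 and 0 members passed, against 24.6%, 9.58%, 4.23% and 1.37% of all genes. At E9.0 the 3 lower members of each label stood beside 8.53% and 12.5% of all genes called lower, and at E9.5 the share of members was below or near that of all genes.

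**Figure D2:**
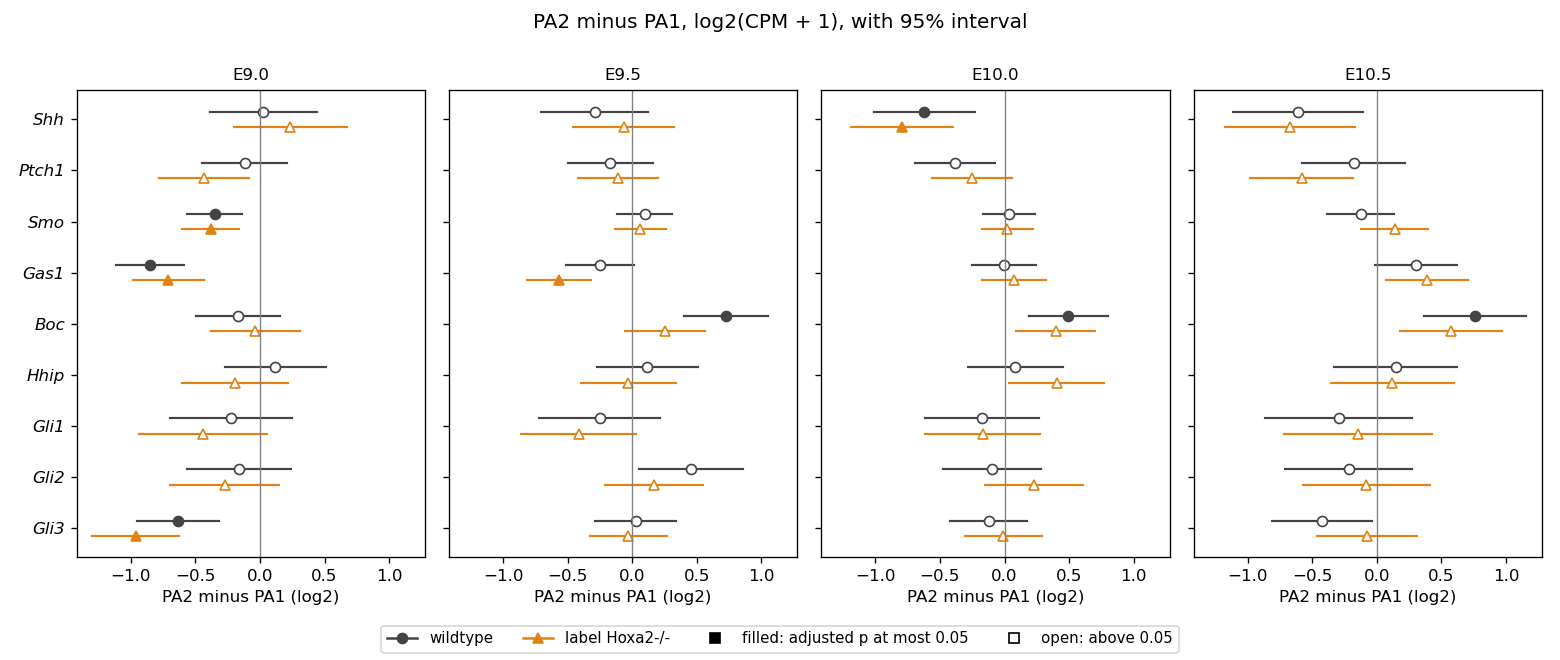
Difference PA2 minus PA1 on the log2(CPM + 1) scale with its 95% interval, for the 9 genes at each stage; grey circles are wildtype, orange triangles the label Hoxa2-/-, and filled symbols have an adjusted p of at most 0.05. Gas1 moves from -0.85 at E9.0 to 0.30 at E10.5 in wildtype, and Boc is at or above 0.49 from E9.5 in wildtype.

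The ligand Shh was scarce in all libraries, at 4 to 84 reads each (0.379 to 4.57 CPM), and was higher in PA1 than in PA2 at E10.0. In wildtype PA1 at E10.0 it was 2.36, 2.12, 4.24, 2.83 and 2.16 CPM, and in wildtype PA2 1.08, 1.20, 1.64, 1.67 and 1.41 CPM. The groups did not overlap, and PA2 was the lower arch in 5 of 5 embryos. The difference, PA2 minus PA1, was -0.62 (SE 0.20, adjusted p = 0.0426). It lost its call without any of 5 single libraries, with a difference of -0.49 and an adjusted p of 0.171 without PA1 replicate 3, and with edgeR (adjusted p = 0.0776) and DESeq2 (0.0542), whose differences of -0.95 and -0.96 use no such added constant. In arches labelled Hoxa2-/- at E10.0, Shh was 2.81, 3.27, 2.64, 2.09 and 2.98 CPM in PA1 and 1.22, 1.44, 0.755, 1.69 and 0.814 CPM in PA2. Here too the groups did not overlap and PA2 was lower in 5 of 5 embryos, with a difference of -0.79 (adjusted p = 0.00741), which passed under every alternative run that gave a value and was -1.22 with edgeR. The surface ectoderm markers were higher in PA1 in the same libraries: their sum was 102 to 166 CPM in wildtype PA1 and 69.6 to 90.1 CPM in wildtype PA2, and 132 to 143 CPM against 61.6 to 97.6 CPM under the label, both without overlap. Pharyngeal endoderm markers went the other way, with sums of 73.1 to 114 CPM in wildtype PA1 and 155 to 216 CPM in wildtype PA2. Under the label they were 86.6 to 103 CPM against 135 to 228 CPM, also without overlap. Markers of epithelium in general overlapped between PA1 and PA2. Their sums were 433 to 610 against 511 to 666 CPM in wildtype, and 508 to 603 against 395 to 646 CPM under the label. The part of these markers in the arch difference of Shh was not tested. At E10.5, all 3 PA2 libraries of each label lay below all 3 PA1 libraries, but the differences of -0.61 and -0.67 did not pass (adjusted p = 0.443 and 0.256). In wildtype the highest PA2 value (2.739 CPM) and the lowest PA1 value (2.742 CPM) were nearly equal. At E9.0 the differences were 0.03 and 0.23. In tissue of mixed cell types, fewer cells that express a gene and less of its RNA per cell cannot be told apart.

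Shh rose with stage in PA1. In wildtype PA1 it was 1.36, 1.08, 0.923, 0.828 and 1.57 CPM at E9.0 and 4.57, 2.74 and 3.59 CPM at E10.5. All 3 later libraries were above all 5 earlier ones, and the change was 1.10 (SE 0.23, adjusted p = 6.65e-05). PA1 labelled Hoxa2-/- went from 0.611, 0.662, 0.896 and 1.45 CPM to 3.31, 2.55 and 2.27 CPM, again without overlap (0.97, adjusted p = 0.00105, and 1.59 with edgeR). In PA2 the same change was 0.46 in wildtype (adjusted p = 0.118) and 0.07 under the label (adjusted p = 0.864). The arch difference at E10.5 minus that at E9.0 was -0.64 and -0.90 and did not pass (adjusted p = 0.349 and 0.0812), so the change was not shown to differ between the arches. Without the 4 libraries high in blood or yolk sac markers, it passed under the label Hoxa2-/- (-1.13, adjusted p = 0.0291). In the same PA1 libraries the summed surface ectoderm markers went from 51.4 to 110 CPM at E9.0 to 116 to 149 CPM at E10.5, and those of epithelium in general went from 673 to 1016 CPM to 345 to 444 CPM. Their part in the change of Shh was not tested. The other ligands were near the floor: Ihh had a median of 0.156 CPM and was at 3 reads or fewer in 50 libraries, and Dhh had 0.411 CPM and was at 3 reads or fewer in 18.

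Ptch1, the receptor and a pathway target, passed no test between the arches. The largest arch difference was -0.58 at E10.5 under the label Hoxa2-/- (adjusted p = 0.178), and at E10.0 PA2 was the lower arch in 5 of 5 embryos of each label. In a fit with the replicate block, which pairs the arches of an embryo, the difference at E9.0 under that label passed (-0.43, adjusted p = 0.0206, and 0.0585 without the block). Without the block, leaving out each library in turn gave -0.56 to -0.16. The adjusted p then ran up to 0.517, and it passed without PA2 replicate 2 (0.0238) or 4 (0.0215). That PA2 group includes replicate 3, its lowest library at 21.9 CPM, which had 213 CPM of yolk sac markers. With stage, 1 of 14 tests of Ptch1 passed, with differences of -0.44 to 0.57. In wildtype PA1 it went from 63.2 ± 4.51 CPM (SD, n = 5) at E9.0 to 77.9 ± 6.12 CPM (SD, n = 3) at E10.5, without overlap. That difference of 0.30 did not pass (adjusted p = 0.178), and it passed in a fit of the compared groups alone (adjusted p = 0.00642). It is one of the 2 members that passed between the labels. In PA2 at E10.5, Ptch1 was 69.2, 82.5 and 56.2 CPM in wildtype and 46.8, 33.5 and 39.0 CPM under the label Hoxa2-/-. The 3 libraries of the label were below all 3 of wildtype, and the difference was -0.78 (SE 0.20, adjusted p = 0.00634). It was -0.65 (adjusted p = 0.0651) without wildtype replicate 2 and -0.67 (adjusted p = 0.0591) without replicate 2 of the label. In PA2 at E9.0, Ptch1 was 69.5, 48.6, 59.6 and 56.2 CPM in wildtype and 41.7, 49.0, 21.9 and 51.6 CPM under the label, groups that overlapped. That difference of -0.56 (adjusted p = 0.0211) rested on replicate 3 of the label, the library with 213 CPM of yolk sac markers. Without it the difference was -0.29 (adjusted p = 0.227). Between labels the replicate block ties different embryos by number only and leaves that library unpaired. Its -0.31 (adjusted p = 0.192) is therefore no separate check. The difference also lost its call without wildtype replicate 1 (-0.47, adjusted p = 0.0762) or 4 (-0.55, adjusted p = 0.0516), or in a fit of the compared groups alone (adjusted p = 0.372). At E10.0, where both labels lie on the same side of the division among libraries, Ptch1 differed by 0.20 in PA2 (adjusted p = 0.763) and 0.08 in PA1. In PA1 at E10.5 the difference was -0.38 (adjusted p = 0.366, and 0.04 in a fit of the compared groups alone).

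Smo, the transducer that Ptch1 holds inactive, was lower in PA2 than in PA1 at E9.0 and higher under the label Hoxa2-/- in 3 of 8 tests. At E9.0 it was 222, 246, 194, 217 and 228 CPM in wildtype PA1 and 182, 171, 181 and 158 CPM in wildtype PA2. The groups did not overlap and PA2 was lower in 4 of 4 embryos, a difference of -0.35 (SE 0.11, adjusted p = 0.0136), although without wildtype PA2 replicate 5 the difference of -0.31 did not pass (adjusted p = 0.0601). In arches labelled Hoxa2-/-, Smo was 269, 313, 249 and 256 CPM in PA1 and 251, 246, 153 and 196 CPM in PA2. These groups overlapped. The difference there was -0.38 (adjusted p = 0.00843). Without PA2 replicate 3, the library at 153 CPM and rich in yolk sac markers, it was -0.24 (adjusted p = 0.116), without PA1 replicate 2 it was -0.31 (adjusted p = 0.0523), and in a fit of the compared groups alone it did not pass (adjusted p = 0.177). From E9.5 on, no arch difference in Smo passed. At E10.5, wildtype PA2 had 161 to 169 CPM and wildtype PA1 176 to 184 CPM, without overlap. PA2 was lower there in 3 of 3 embryos, and under the label it was higher in 3 of 3, with overlapping groups. The arch mesenchyme markers were also lower in PA2 at E9.0, with sums of 342 to 407 CPM against 546 to 621 CPM in wildtype. Per 100 CPM of these markers the order of the arches turned: wildtype Smo was 38.2 ± 2.79 (SD, n = 5) in PA1 and 45.5 ± 2.32 (SD, n = 4) in PA2, without overlap. Under the label it was 50.6 ± 1.79 and 51.5 ± 17.7 (SD, n = 4 each), with overlap. The part of the markers in the lower CPM was not tested. With stage, Smo passed in 1 of the 4 changes from E9.0 to E10.5, a fall in wildtype PA1 (-0.30, adjusted p = 0.0316). With the replicate block, which over the stages ties different embryos by number only, the adjusted p of this change was 0.0704. That change lost its call without any of 5 single libraries, with adjusted p up to 0.0883.

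Between the labels, Smo was higher under Hoxa2-/- in all 8 tests by 0.12 to 0.62, and 3 passed. In PA2 at E10.5 it was 161, 164 and 169 CPM in wildtype and 250, 258 and 250 CPM under the label. These groups lay far apart beside their spread, and the difference was 0.62 (SE 0.13, adjusted p = 0.000799). In PA1 at E9.5 it was 167, 230, 158, 188 and 200 CPM in wildtype and 274, 272, 229, 212 and 253 CPM under the label. These groups overlapped, and the difference was 0.40 (adjusted p = 0.00243). In PA2 at E9.5, wildtype had 197, 170, 213 and 224 CPM and the label 229, 266, 274, 267 and 256 CPM, without overlap. That difference of 0.37 (adjusted p = 0.03) lost its call without any of 6 single libraries, the most without wildtype replicate 2 (0.29, adjusted p = 0.165). At E9.0 the PA2 difference was 0.26 (adjusted p = 0.108). It passed without replicate 3 of the label (0.41, adjusted p = 0.00669). It also passed with the replicate block (0.36, adjusted p = 0.0143). Between labels that block ties different embryos by number only and leaves replicate 3 unpaired, so it is no separate check. In PA1 at E10.5 the difference was 0.35 (adjusted p = 0.127, and 0.0437 with the same block by number). At E10.0 it was 0.13 in PA1 and 0.12 in PA2 (adjusted p = 0.797). The 24 wildtype libraries of the stages other than E10.0 had a median Smo level of 183 CPM (158 to 246). The 10 wildtype E10.0 libraries had 241 CPM (201 to 298) and the 34 libraries labelled Hoxa2-/- 256 CPM (153 to 313). These ranges overlapped, and the wildtype E10.0 libraries differ from the 24 in stage as well. For Ptch1 the same medians were 67.2, 53.4 and 56.6 CPM. For both genes, label and division cannot be told apart.

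**Figure D3:**
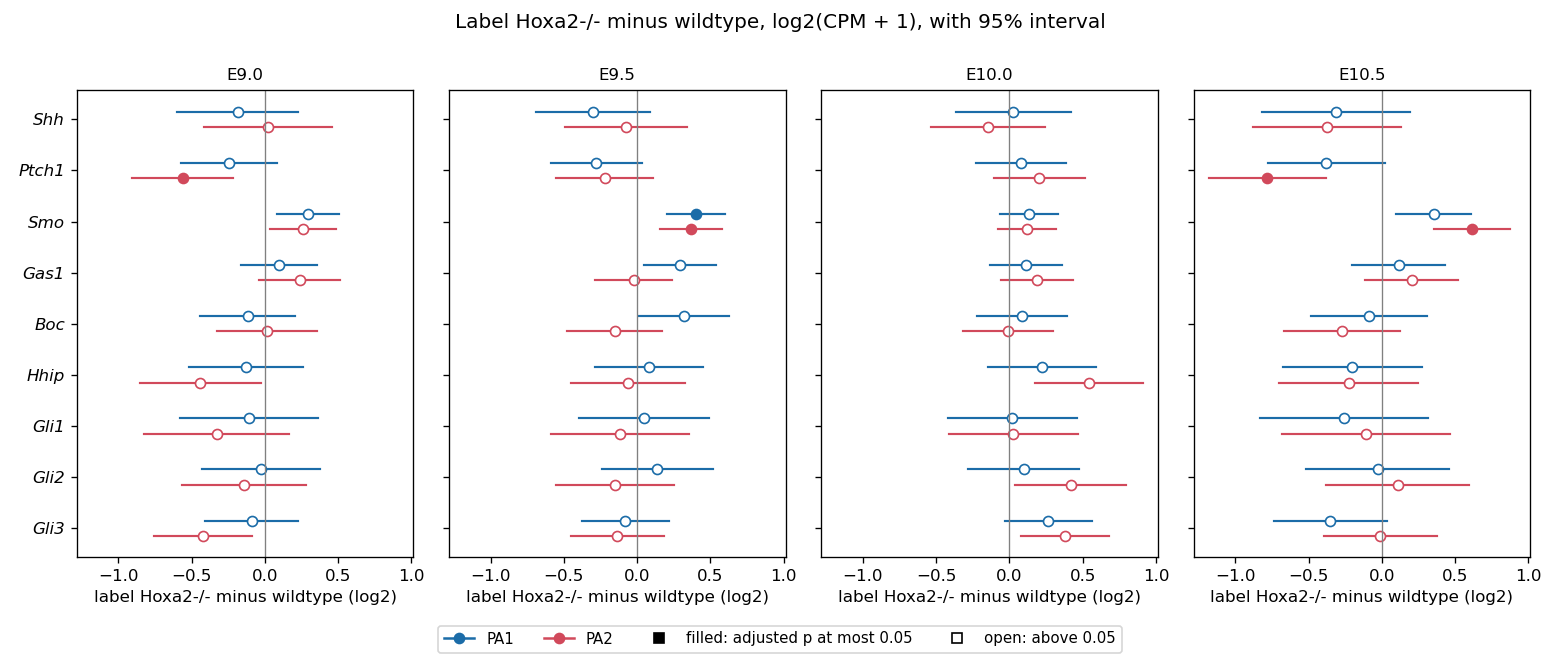
Difference label Hoxa2-/- minus wildtype on the log2(CPM + 1) scale with its 95% interval for the 9 genes, in a panel per stage; blue is PA1, red is PA2, and filled symbols have an adjusted p of at most 0.05. Smo is at 0.62 and Ptch1 at -0.78 in PA2 at E10.5, and no gene is filled at E10.0.

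Counted over all members, 5 of 72 tests between the labels passed, 3 higher and 2 lower, and all 5 were of Smo or Ptch1. In PA1 0, 1, 0 and 0 members passed at the 4 stages, against 2.08%, 23.6%, 0% and 3.05% of all genes. In PA2 1, 1, 0 and 2 members passed, against 14%, 4.48%, 0.0814% and 10.3% of all genes. Whether the label acted differently in PA2 than in PA1 was tested as an interaction, in which 0 of 36 tests of members passed in limma, edgeR and DESeq2. In limma 1 of the 36 had an unadjusted p of at most 0.05, and of all genes 0%, 0.0109%, 0.0163% and 0.038% passed at the 4 stages. The Ptch1 and Smo differences in PA2 at E10.5 were therefore not shown to be absent from PA1.

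The co-receptor Gas1 gave the largest changes among the members. At E9.0 it was 154, 165, 104, 163 and 145 CPM in wildtype PA1 and 82.4, 73.8, 84.4 and 78.0 CPM in wildtype PA2. Every PA2 library was below every PA1 library, a difference of -0.85 (SE 0.13, adjusted p = 1.79e-06). Under the label Hoxa2-/- Gas1 was 134, 187, 139 and 163 CPM in PA1 and 96.9, 92.1, 86.7 and 101 CPM in PA2, again without overlap (-0.71, adjusted p = 9.94e-05). PA2 was the lower arch in 4 of 4 embryos of each label, and both calls passed under every alternative run. At E9.0 the 6 arch mesenchyme markers summed to 546 to 621 CPM in wildtype PA1 and 342 to 407 CPM in wildtype PA2, with 5 of 6 called lower in PA2. Pharyngeal endoderm markers summed to 132 to 144 CPM in PA1 and 226 to 313 CPM in PA2, and heart muscle markers to 8.92 to 22.4 CPM in PA1 and 19.9 to 658 CPM in PA2. Per 100 CPM of summed mesenchyme markers, wildtype Gas1 was 25.3 ± 4.53 (SD, n = 5) in PA1 and 21.0 ± 2.05 (SD, n = 4) in PA2, and under the label 29.0 ± 2.35 (SD, n = 4) and 22.7 ± 4.89 (SD, n = 4). The part of these markers in the difference was not tested.

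Gas1 then rose in PA2, and from E10.0 its arch difference no longer passed. Wildtype PA2 had 139, 119, 112 and 154 CPM at E9.5, 273, 208, 236, 244 and 214 CPM at E10.0, and 278, 274 and 283 CPM at E10.5. From E9.0 to E10.5 every later library was above every earlier one, a change of 1.80 (SE 0.15, adjusted p = 1.39e-14). PA2 labelled Hoxa2-/- went to 372, 300 and 298 CPM at E10.5, a change of 1.76 (adjusted p = 1.41e-13). PA1 rose less, from a mean of 146 ± 24.9 CPM (SD, n = 5) to 227 ± 27.6 CPM (SD, n = 3) in wildtype (0.65, adjusted p = 0.000183), and by 0.66 under the label (adjusted p = 0.000406). The test of the difference itself, the arch difference at E10.5 minus that at E9.0, gave 1.15 in wildtype (SE 0.21, adjusted p = 0.000167, 95% interval 0.74 to 1.56) and 1.10 under the label (adjusted p = 0.000544). At E10.5 the arch differences of 0.30 and 0.39 did not pass, although PA2 was higher in 3 of 3 embryos of each label. At E9.5 the arches were between: -0.25 in wildtype (adjusted p = 0.156) and -0.57 under the label (adjusted p = 0.000984, and 0.0636 in a fit of the compared groups alone). By E10.5 the summed mesenchyme markers were 616 to 704 CPM in wildtype PA2 and 650 to 759 CPM in wildtype PA1. Per 100 CPM of them, Gas1 was 42.1 in wildtype PA2 and 32.4 in wildtype PA1. No difference in Gas1 between the labels passed. In PA1 at E9.5 it was 0.29 (adjusted p = 0.0741). That difference passed with the replicate block (adjusted p = 0.0306), which between labels ties different embryos by number only.

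Boc, a co-receptor of the same ligand-binding step, fell in PA1 while it did not change detectably in PA2. Wildtype PA1 had 19.2, 24.1, 18.7, 21.6 and 24.8 CPM at E9.0 and 12.9, 13.5 and 11.8 CPM at E10.5. The groups did not overlap, and the change was -0.72 (adjusted p = 0.000729). PA1 labelled Hoxa2-/- fell from 19.7, 21.1, 19.7 and 18.7 CPM to 10.7, 12.5 and 12.6 CPM, also without overlap (-0.69, adjusted p = 0.00284). In PA2 the change was 0.21 in wildtype and -0.08 under the label. The arch difference of Boc changed with stage by 0.93 in wildtype (adjusted p = 0.0245) and by 0.61 under the label (adjusted p = 0.138). The wildtype value lost its call without any of 4 single libraries, the most without PA2 E10.5 replicate 2 (0.76, adjusted p = 0.117).

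Boc was accordingly higher in wildtype PA2 from E9.5. At E9.5 it was 9.93, 18.2, 11.8, 15.6 and 14.98 CPM in PA1 and 21.6, 19.1, 26.2 and 28.3 CPM in PA2. All PA2 libraries were above all PA1 libraries, by 0.73 (SE 0.16, adjusted p = 0.000737), which passed under every alternative run. At E10.0 the arches overlapped and PA2 was higher in 5 of 5 embryos, by 0.49 (adjusted p = 0.0394, and 0.0609 in a fit of the compared groups alone). At E10.5 PA1 had 12.9, 13.5 and 11.8 CPM and PA2 17.8, 28.1 and 21.8 CPM, without overlap, a difference of 0.76 (adjusted p = 0.024). The E10.0 call was lost without any of 6 single libraries (adjusted p up to 0.141). The E10.5 call was lost without any of 5, the most without PA2 replicate 2 (0.60, adjusted p = 0.262). Under the label Hoxa2-/- the arch differences were -0.04, 0.25, 0.39 and 0.58 at the 4 stages and none passed (adjusted p = 0.139 at E10.0 and 0.176 at E10.5). In a fit of the compared groups alone the E10.0 difference passed (adjusted p = 0.0434). PA2 was nonetheless higher in 5 of 5 embryos at E10.0 and 3 of 3 at E10.5 under that label.

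Hhip, which binds ligand at the cell surface and is a pathway target, passed no test with all libraries in the fit. Its group means ran from 7.70 to 13.97 CPM and its single libraries from 5.505 to 16.6 CPM. Between the labels it differed by 0.54 in PA2 at E10.0 (adjusted p = 0.472) and by -0.44 in PA2 at E9.0 (adjusted p = 0.147). The E9.0 difference was -0.72 and passed (adjusted p = 0.014) without wildtype replicate 2, the library with 53786 CPM of red cell markers. It was -0.68 (adjusted p = 0.0258) without all 4 libraries high in blood or yolk sac markers. In PA2 labelled Hoxa2-/- the step from E9.0 to E9.5 was 0.50 (adjusted p = 0.0639), and it passed without E9.0 replicate 2 (0.63, adjusted p = 0.0267) or E9.5 replicate 3 (0.59, adjusted p = 0.043).

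Among the transcription factors, Gli3 was the member that differed between the arches. At E9.0 it was 120, 130, 109, 95.04 and 117 CPM in wildtype PA1 and 79.7, 73.2, 71.9 and 67.8 CPM in wildtype PA2. The groups did not overlap, PA2 was lower in 4 of 4 embryos, and the difference was -0.63 (SE 0.16, adjusted p = 0.00277). In arches labelled Hoxa2-/-, Gli3 was 122, 86.6, 108 and 113 CPM in PA1 and 74.9, 71.0, 29.8 and 54.6 CPM in PA2, a difference of -0.96 (SE 0.17, adjusted p = 1.74e-05). PA2 was lower there in 4 of 4 embryos too, and in a fit of the compared groups alone the adjusted p was 0.0559. The library at 29.8 CPM is the one rich in yolk sac markers, and leaving out each library in turn gave -1.11 to -0.68. Per 100 CPM of summed mesenchyme markers, Gli3 was 19.7 ± 1.58 (SD, n = 5) in wildtype PA1 and 19.2 ± 0.719 (SD, n = 4) in wildtype PA2. The values under the label were 20.3 ± 4.13 and 14.1 ± 6.62 (SD, n = 4 each), with overlap (14.3 to 23.7 and 7.02 to 22.9). From E9.5 on, no arch difference in Gli3 passed. At E10.5, wildtype PA2 had 58.2 to 77.1 CPM and wildtype PA1 87.0 to 101 CPM, without overlap. PA2 was lower there in 3 of 3 embryos, and under the label in 1 of 3, with overlapping groups. The arch difference changed with stage by 0.88 under the label (adjusted p = 0.024). It was 0.60 without PA2 E9.0 replicate 3 (adjusted p = 0.102), and the adjusted p was 0.195 in a fit of the compared groups alone and 0.0512 with edgeR. It also lost its call without PA1 E9.0 replicate 1, PA1 E10.5 replicate 1, PA2 E10.5 replicate 1 or PA2 E10.5 replicate 2 (adjusted p up to 0.0833). In wildtype it was 0.21 (adjusted p = 0.774).

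With stage, Gli3 passed in 3 tests. It fell in PA1 labelled Hoxa2-/- from E9.0 to E10.5, when the values were 66.8, 71.8 and 80.4 CPM, without overlap (-0.55, adjusted p = 0.0157). That call was lost without E9.0 replicate 1 (adjusted p = 0.0546) or E10.5 replicate 1 (0.0796). In wildtype PA2 it fell from 95.7, 95.9, 95.1 and 107 CPM at E9.5 to 77.1, 74.3 and 58.2 CPM at E10.5 (-0.50, adjusted p = 0.0261). These groups did not overlap, and the adjusted p was 0.164 without E10.5 replicate 3 and 0.0642 without E9.5 replicate 5. The rise from E9.0 to E9.5 in PA2 labelled Hoxa2-/- is described with the other members of that group below.

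Gli1, the factor whose own transcription follows pathway activity, rose with stage in both arches. In wildtype PA1 it was 6.53, 5.58, 5.07, 6.21 and 6.92 CPM at E9.0 and 12.96, 12.1 and 16.4 CPM at E10.5. No library of one stage reached those of the other, and the change was 1.07 (SE 0.26, adjusted p = 0.000533). Wildtype PA2 went from 5.97, 3.47, 6.07 and 4.98 CPM to 8.74, 14.4 and 10.53 CPM (0.99, adjusted p = 0.00243), also without overlap. With the label Hoxa2-/-, PA1 went from 3.89, 5.16, 5.68 and 8.01 CPM to 12.3, 12.4 and 9.43 CPM (0.92, adjusted p = 0.0062). PA2 went from 2.90, 6.74, 2.56 and 3.97 CPM to 11.7, 8.64 and 10.2 CPM (1.21, adjusted p = 0.000306). All 4 calls passed under every alternative run, and the last was 0.77 with an added constant of 5. The arch difference at E10.5 minus that at E9.0 was -0.07 in wildtype (adjusted p = 0.964, 95% interval -0.81 to 0.67) and 0.30 under the label (adjusted p = 0.7, 95% interval -0.46 to 1.053). Gli1 passed no test between arches, where its 8 differences lay between -0.44 and -0.14, or between labels.

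Gli2, the main activating factor of the pathway, had group means of 23.5 to 38.0 CPM and passed 1 test. In wildtype PA2 it was 28.1, 22.8, 27.4 and 19.2 CPM at E9.0 and 34.9, 32.1, 36.1 and 49.1 CPM at E9.5. All 4 later libraries were above all 4 earlier ones, but the difference of 0.62 did not pass (adjusted p = 0.0612). It did pass with edgeR (0.64, adjusted p = 0.0466) and DESeq2 (0.63, adjusted p = 0.033), and without the libraries high in blood or yolk sac markers (0.59, adjusted p = 0.0352). It passed too with the replicate block (0.73, adjusted p = 0.035), which over the stages ties different embryos by number only. The test that passed was the same step in PA2 labelled Hoxa2-/-, in which 6 of 9 members passed, against 16.9% of all genes. These were Gas1 (0.44), Gli3 (0.71), Gli1 (0.71), Gli2 (0.61), Ptch1 (0.57) and Smo (0.31), all higher at E9.5, as were 9.98% of all genes. The E9.0 library with 213 CPM of yolk sac markers, replicate 3, had the lowest value of its group of 4 in all 6. For Gli2 it was 10.1 CPM beside 31.4, 24.97 and 27.5 CPM. Without it none of the 6 passed: Gas1 was 0.40 (adjusted p = 0.0849), Gli3 0.43 (0.0698), Gli1 0.56 (0.194), Gli2 0.27 (0.446), Ptch1 0.30 (0.272) and Smo 0.17 (0.383). Gli3 did keep its call when all libraries high in blood or yolk sac markers were left out. Its groups did not overlap, with 79.9 to 115 CPM at E9.5 and 29.8 to 74.9 CPM at E9.0. In a fit of the compared groups alone the adjusted p of all 6 was between 0.228 and 0.294. Without E9.5 replicate 4, high in Gas1, Gli1, Gli3 and Ptch1, Gas1 was 0.29 (adjusted p = 0.122), and Ptch1, Smo, Gli1 and Gli2 did not pass either (adjusted p = 0.0703 to 0.171).

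Over all stage comparisons, 27 of 126 tests of members passed, 21 higher and 6 lower at the later stage. From E9.0 to E10.5, 5 of 9 members passed in wildtype PA1 (42.5% of all genes), 2 in wildtype PA2 (36.9%), 5 in PA1 labelled Hoxa2-/- (31.2%) and 2 in PA2 under that label (30.9%). The share of members was therefore near or below that of all genes in PA2. Gas1 and Gli1 passed in all 4. In PA1 of both labels Shh and Boc passed too, and the fifth member was Smo in wildtype and Gli3 under the label. From E9.0 to E9.5, 1 member passed in wildtype PA1 (Boc, -0.61, adjusted p = 0.0129) and 1 in wildtype PA2 (Gas1, 0.70, adjusted p = 0.000897), against 6.73% and 6.68% of all genes, and 0 in PA1 labelled Hoxa2-/- against 2.85%. The Boc step was -0.50 (adjusted p = 0.0892) without wildtype PA1 E9.5 replicate 1. From E9.5 to E10.5 in wildtype, 1 member passed in PA1 (Gas1, 0.55, adjusted p = 0.00155) and 2 in PA2 (Gas1, 1.09, adjusted p = 5.6e-08, and Gli3), against 40.9% and 34.3%. From E9.5 to E10.0 under the label, Gas1 was the 1 member that passed in PA1 (0.42, adjusted p = 0.0375, lost without any of 8 single libraries) and in PA2 (1.06, adjusted p = 6.5e-08), against 4.4% and 4.57%. From E10.0 to E10.5 under the label, 0 passed in either arch, against 0.298% and 0.239%. The wildtype E10.0 libraries were not compared with other wildtype stages, because they lie on the other side of the division. For the change of the arch difference, 2 of 9 members passed in wildtype (3.35% of all genes) and 3 under the label (7.33%).

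**Figure D4:**
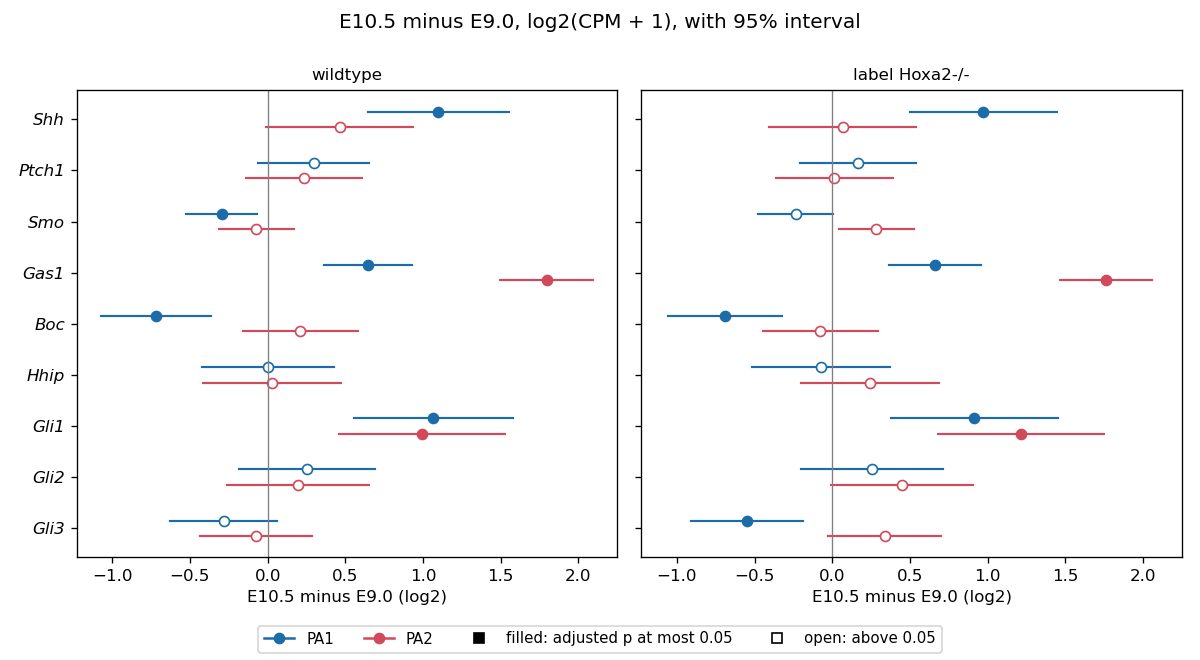
Difference E10.5 minus E9.0 on the log2(CPM + 1) scale with its 95% interval for the 9 genes, in a panel for wildtype and one for the label Hoxa2-/-; blue is PA1, red is PA2, and filled symbols have an adjusted p of at most 0.05. Gas1 is at 1.80 in wildtype PA2 and 0.65 in wildtype PA1, Gli1 is filled in both arches of both panels, and Shh and Boc are filled in PA1.

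The wider pathway was read from a list of 53 genes that includes the 9 members, with ligands, release factors, receptors, cilium and signal transduction genes and target genes of the arches, of which 51 passed the filter, all but Ihh and Dhh. Between the arches at E9.0, 1 of 51 was higher and 9 lower in wildtype PA2, with a median difference of -0.21 against -0.01 over all genes. Under the label 3 were higher and 12 lower. Of all genes, 18.7% and 24.6% passed in these comparisons. At E10.5 1 was higher and 1 lower in wildtype, and 0 higher and 2 lower under the label, beside 1.52% and 1.37% of all genes. From E9.0 to E10.5, 13 were higher and 11 lower in wildtype PA1 and 10 higher and 4 lower in wildtype PA2. Under the label the counts were 12 and 13 in PA1 and 10 and 4 in PA2. In the same order, 42.5%, 36.9%, 31.2% and 30.9% of all genes passed. Of the 10 target genes of the arches on this list, 4 were higher and 2 lower in wildtype PA1, and 4 higher and 1 lower in wildtype PA2.

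Of the genes beside the members, the forkhead factor Foxf1, a Hedgehog target of arch mesenchyme, had the largest mean change over the stages. Its mean went from 6.98 ± 3.48 CPM (SD, n = 5) to 57.5 ± 3.15 CPM (SD, n = 3) in wildtype PA1 and from 3.17 ± 1.67 CPM (SD, n = 4) to 39.5 ± 17.4 CPM (SD, n = 3) in wildtype PA2, changes of 2.96 (adjusted p = 3.32e-07) and 3.304 (adjusted p = 1.11e-07). Foxf1 was lower in PA2 at E9.5, a difference of -1.48 in wildtype (adjusted p = 0.00652) and -1.87 under the label (adjusted p = 0.00065). The related Foxf2 rose by 2.15 in wildtype PA1 (adjusted p = 2.32e-07) and 1.76 in wildtype PA2 (adjusted p = 3.44e-05). Foxd1, a forkhead gene of the same mesenchyme, was lower in PA2 at E10.0 in wildtype (4.10 ± 2.26 against 15.1 ± 6.58 CPM, SD, n = 5 each, -1.67, adjusted p = 0.00289), and in wildtype PA1 it rose from 1.87 ± 1.17 CPM (SD, n = 5) at E9.0 to 21.8 ± 0.602 CPM (SD, n = 3) at E10.5 (adjusted p = 1.19e-07). Foxc2, another forkhead gene, was higher in PA2 at E9.0 under the label by 0.90 (adjusted p = 0.0079). The forkhead gene Foxd2 was lower in PA2 at E9.0 (-1.32 in wildtype, adjusted p = 6.98e-05), and its arch difference changed by 1.38 by E10.5 (adjusted p = 0.0288). In the other direction with stage, Lrp2, a large endocytic receptor that binds Shh, fell by 2.61 in wildtype PA1 (adjusted p = 1.09e-11) and fell by 2.14 in wildtype PA2 (adjusted p = 1.2e-08). Gpc3, a cell surface glypican that binds Hedgehog ligand, was higher in wildtype PA2 at E9.0 (0.36, adjusted p = 0.022), and its arch difference changed by -0.86 by E10.5 (adjusted p = 0.00209). The proliferation factor Mycn also fell over these stages in wildtype PA1 and PA2 (-1.47 and -1.46, adjusted p = 3.21e-10 and 1.74e-09). Scube1, of the family that helps release lipid-bearing ligands, was higher in wildtype PA2 by 0.95 at E9.5 (adjusted p = 0.00155) and 0.93 at E10.0 (adjusted p = 0.00244).

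Osr2, a zinc finger gene of the palate and jaw mesenchyme, was higher in wildtype PA1 at E10.5 (18.9 ± 5.94 CPM, SD, n = 3) than in wildtype PA2 (3.06 ± 1.09 CPM, SD, n = 3), a difference of -2.28 (adjusted p = 3.75e-08). It was 5.32 ± 3.05 CPM (SD, n = 3) in PA1 under the label, -1.71 from wildtype (adjusted p = 8.05e-05). Spop, an adaptor for ubiquitination of Gli2 and Gli3, passed between the labels in 5 of 8 tests, higher under Hoxa2-/- by 0.37 to 0.47. Its partner Cul3 was lower in PA1 under the label at E9.5 (-0.94, adjusted p = 0.00677) and E10.5 (-1.53, adjusted p = 0.00493). Grk2, a kinase that phosphorylates Smo, was higher in PA2 at E10.5 under the label (0.55, adjusted p = 0.035). For these 4 genes too, label and division among libraries cannot be told apart.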

How the data were processed

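RNA of hand-dissected arches was made into cDNA with SMART-seq v4 and sequenced as Nextera XT libraries, per the labels' protocols. The submitters' processing notes name bcl2fastq 2.18, TopHat2 2.1.1, R 3.3.2 and mm10. The counting program, annotation and strand are not given in the sources used here. The authors deposited a signal close to CPM (depth-scaled counts), with column totals of 926298 to 1051959. All values (100%) were whole multiples of 1 read to within 0.01 reads. No molecular identifiers are described, so depth and floors cover counting error only.

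The members and lists were chosen with earlier results of these data known. Groups came from the labels. limma 3.58.1 in R 4.3.3 was fitted to log2(CPM + 1) with 1 mean per group over 68 libraries, a prior variance that follows the mean level and two-sided tests, and p-values were adjusted by Benjamini-Hochberg over 18428 genes. A log2 difference on this scale understates changes of low genes such as Shh. edgeR 4.0.16 and DESeq2 1.42.0 were run on recovered reads. Other alternatives changed the constant (0.25, 5), the filter (none, 5 CPM), the scaling, the groups in the fit, a block or a library. Leaving out the 4 libraries high in blood or yolk sac markers was added after seeing the data. Counts were simulated at the mean levels over the 68 libraries, with 1 dispersion of 0.03 for every gene. Changes were set in wildtype PA2 at E9.0, in genes with a mean of at least 5 CPM. Among 17792 genes tested between the arches, 19.4% of changes of 0.5, 98.5% of 1 and 100% of 2 on the log2 scale were recovered. There were 6 false calls. The simulated libraries were drawn independently with equal spread in all groups, so these rates do not cover groups of unequal spread or libraries that stand apart. Shh, with a mean of 1.80 CPM, lies below the level of the changed genes. Genes beside the members were named as up to 3 with the largest mean difference in each direction among those that passed at least once with a mean of at least 5 CPM. One gene most like Shh is not reported here.

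PA1 and PA2 of the same number came from one embryo, per the series text. Their deviations from group means had a median correlation of 0.347 over 33 pairs, over 0.1 in 30 pairs, against -0.124 for other numbers. Deviations from a group mean cancel out within the group, so the value for other numbers is not a separate baseline. Same-numbered wildtype and Hoxa2-/- libraries shared only a number (median 0.0362, over 0.1 in 14 of 32 pairs). Among 116 pairs of replicates none was a copy of another (chi-square per degree of freedom at least 5.84).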

Additional observations from a re-analysis of the deposited data

Results flagged for a closer look

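In 3 of 108 sets of 4 or 5 libraries (a member in a group), 1 library stood away from the rest, and chance gives about 1 in 20. Gli2 was 29.3 CPM in replicate 4 of PA2 labelled Hoxa2-/- at E10.0, a library with 193 CPM of yolk sac markers, and 35.1 to 37.2 CPM in the other 4. Gli3 was 107 CPM in replicate 5 of wildtype PA2 at E9.5 and 95.1 to 95.9 CPM in the other 3. Gli3 was 115 CPM in replicate 4 of PA2 labelled Hoxa2-/- at E9.5 and 79.9 to 89.2 CPM in the other 4.

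For 5 member and label combinations, the difference between the arches changed from E9.0 to E10.5 by the test of that change. It was 1.15 for Gas1 and 0.93 for Boc in wildtype, and 1.10 for Gas1, 0.88 for Gli3 and 0.52 for Smo under the label Hoxa2-/-. The Smo change (adjusted p = 0.0486) did not pass with a constant of 0.25 (adjusted p = 0.0501), without the filter (0.0547), with median-of-ratios scaling (0.0639), in a fit of the compared groups alone (0.217), with edgeR (0.099) or with DESeq2 (0.0751).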

How the results depend on the processing

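No called value of a member changed direction under any alternative run. Among 6165 recomputed single values, 272 changed sign where neither value passed. The count of members whose arch difference changed from E9.0 to E10.5 was 5, and it was 3 in a fit of the compared groups alone and 3 with edgeR. It ran from 3 to 5 when each library was left out. The count was 3 without replicate 1 of PA1 at E9.0, PA1 at E10.5 or PA2 at E10.5 or replicate 2 of PA2 at E10.5, all labelled Hoxa2-/-. Leaving out each library gave 10 to 14 calls between arches (12 with all libraries), 4 to 7 between labels (5), 0 for the interaction and 21 to 29 over the stages (27). With the replicate block there were 13, 7, 0, 26 and 5 calls in the same order with the change of the arch difference last. The block pairs PA1 and PA2 of an embryo for the arch comparisons, the interaction and the change of the arch difference. Between the labels and over the stages it ties different embryos by number only, so those 7 and 26 calls come from no real pairing. In a fit of the compared groups alone the number of genes called in all fell from 2585 to 15 between the labels in PA2 at E9.0 and from 3119 to 5 between E9.0 and E9.5 in PA2 labelled Hoxa2-/-. Median-of-ratios scaling moved the median of all genes by at most 0.0222. The filter of 5 CPM gives Shh no value, and Shh, at 4 to 84 reads a library, is the member whose size depends most on the added constant: its rise in wildtype PA1 was 0.49 with a constant of 5 against 1.10 with 1.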

Other observations

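Correlations of log levels over the 68 libraries, which share embryos, depth and the division described above, rank the genes most like a member (no test). For Shh, among 10511 genes, they included Samd5 (Pearson's r = 0.739), Hand2os1 (0.716), AI606473 (0.692) and Tfap2c (0.691). For Gli1 they were Nbea (0.878), Foxf1 (0.859), Kif26b (0.858), Pcdh19 (0.856) and Epha7 (0.854), and among the members Gas1 (0.772) and Shh (0.607). For Ptch1 they were Clcn5 (0.790), Zfp275 (0.784), Fem1b (0.768), Usp9x (0.762) and Amot (0.756). After group means were removed, the highest correlations between members were those of Gli2 with Gli3 (0.791) and of Ptch1 with Gli2 (0.763), Gli3 (0.717) and Gli1 (0.711). These include replicate 3 of PA2 labelled Hoxa2-/- at E9.0, the library with 213 CPM of yolk sac markers. It was the lowest of its group in Ptch1, Gli1, Gli2 and Gli3, and its part in these correlations was not tested.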
